A study of Mus musculus with 2 samples.

Results

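The antioxidant and iron handling genes are a set of 33 genes, chosen by gene symbol, out of the 32285 genes counted in each library. They encode the NRF2 switch (Nfe2l2, Keap1, Sqstm1), inducible detoxification enzymes (Hmox1, Nqo1, Srxn1), the glutathione system (Slc7a11, Gclc, Gclm, Gss, Gsr), thioredoxins and peroxiredoxins (Txn1, Txnrd1, Prdx1, Prdx3, Prdx5, Prdx6), enzymes that remove superoxide and peroxide (Sod1, Sod2, Cat, Gpx1, Gpx3, Gpx4), the supply of NADPH (G6pdx, Pgd, Taldo1, Tkt, Me1), and iron storage and transport with a lipid enzyme of ferroptosis (Fth1, Ftl1, Tfrc, Slc40a1, Acsl4). scRNAseq was performed on 1 ischemic kidney and 1 control kidney of male wildtype C57BL/6J mice of 19 weeks. The ischemic kidney was the left one, deprived of blood for 27 min and collected after 24 h of reperfusion. The control was the uninjured kidney of the other side, so it came from an operated animal and is not a sham control, and no sample label says whether both kidneys came from 1 mouse. Both kidneys were taken apart with warm enzymes and trypsin before their cells were captured in droplets.

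NRF2 (Nfe2l2) is a transcription factor that KEAP1 holds in the cytosol and sends for degradation. Oxidants and electrophiles modify KEAP1, and NRF2 then enters the nucleus and binds antioxidant response elements near genes for glutathione synthesis, thioredoxin recycling, heme breakdown and NADPH supply. Iron released from heme or other proteins can feed the formation of radicals and lipid peroxides, and ferritin, made of the Fth1 and Ftl1 chains, stores it in a safe form. Iron regulatory proteins bind hairpins called iron responsive elements, which block translation when placed in the 5' UTR (ferritin, ferroportin) and stabilise the mRNA when placed in the 3' UTR (transferrin receptor). The proximal tubule takes up filtered iron and proteins, depends on mitochondria, and is the segment best known for injury in ischemic AKI.

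The deposited counts held 15110 control and 15257 ischemia barcodes, of which 12586 and 13116 were kept, at a median of 3839 and 2138.5 UMIs per cell. Clustering gave 18 clusters, of which 16 could be named from markers, as 13 cell types. Comparisons were made in the 10 types with at least 50 cells in each library. They were PT-like (proximal tubule, 3862 and 2812 control and ischemia cells), EC-like (endothelial, 905 and 1037), TAL-like (thick ascending limb, 495 and 489), macrophage-like (290 and 584), CD-PC-like (collecting duct principal, 452 and 391), DCT-CNT-like (distal convoluted and connecting tubule, 462 and 349), pericyte-like (239 and 298), T-like (99 and 115), thin limb-like (88 and 77) and podocyte-like cells (94 and 63). PMN-like cells (neutrophils) numbered 33 and 210, so their levels are given without a ratio. A cluster of 4598 control and 5841 ischemia cells with a median of 836 UMIs stayed unnamed, as did a cluster of 871 control and 764 ischemia cells whose top genes held both TAL and DCT-CNT markers. The CD-PC-like cells also held DCT-CNT markers, 18299 and 9173 CPM together, beside 6621 and 4244 CPM of the CD-PC markers and 3247 and 2000.2 CPM of intercalated cell markers, so they may not be principal cells alone. Mitochondrial UMIs, which count in the denominator, made up 26.5% and 22.5% in control and ischemia PT-like cells and 31.9% and 25.8% in TAL-like cells. Havcr1, the kidney injury gene that encodes KIM-1, measured 7.16 CPM in control and 418 CPM in ischemia PT-like cells, higher in the library labelled ischemic. The 2 libraries shared 88 barcodes, 58 of them among the kept cells.

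Levels are CPM, the UMIs of a gene summed over all cells of a type, per 1000000 UMIs of those cells. Where 2 values follow each other, the control library comes first and the ischemia library after it, and each ratio is ischemia over control. With 1 kidney per condition there were no replicates and no test could be run, so a gene was called higher or lower when its ratio reached 2-fold, among genes with at least 50 UMIs over both libraries in that cell type. Intervals at 95% cover counting error only and say nothing about the spread between animals or between cells of a type. Fewer transcripts per cell and a change in the mix of cells within a type cannot be told apart. Counts were read at the 3' end, so levels are compared within a gene, between cell types or libraries, and not between genes.

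Of the members, 28 had an entry among the RefSeq promoters (build GRCm38.p6), each 250 bases before to 50 bases after a transcription start. Hmox1, Gclc, Gsr, Prdx6 and Slc40a1 were not among them. The letters TGACNNNGC, the core of the antioxidant response element, were found on either strand in 9 of the 28 (32.1%), in any entry of the gene, beside 14% of all genes in the table. They were Nfe2l2, Srxn1, Gclm, Txnrd1, Prdx1, Sod1, G6pdx, Pgd and Me1. In Prdx1 and Me1 the match also holds the AP-1 letters TGACTCA or their reverse complement. The windows of Srxn1, Gclm, Txnrd1 and Pgd are printed because these genes were called in at least 1 cell type, and that of Prdx1 for its overlap with the AP-1 letters. Capitals mark the match, read 5′ to 3′ on the strand of the gene.
Srxn1, chr2:152105542-152105571, plus strand, match 28 bases after the start: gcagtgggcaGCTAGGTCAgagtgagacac
Gclm, chr3:122245413-122245442, plus strand, match 134 bases before the start: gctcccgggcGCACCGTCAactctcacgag
Txnrd1, chr10:82859104-82859133, plus strand, match 92 bases before the start in 1 of 3 entries: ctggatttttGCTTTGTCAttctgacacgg
Pgd, chr4:149166060-149166089, minus strand, match 3 bases after the start in 1 of 2 entries: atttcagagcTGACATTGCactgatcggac
Prdx1, chr4:116685456-116685485, plus strand, match 133 bases before the start: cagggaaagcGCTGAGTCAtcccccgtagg
In the first 3 of these and in Prdx1 the core lies on the strand opposite to the gene, so it reads as the reverse complement. A match of these letters is a description of the window and no measure of NRF2 binding.

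Iron responsive elements were searched in the GENCODE M21 transcripts (GRCm38), as a loop of CAGTG followed by A, C or T over 5 paired stem bases with an unpaired C on the 5′ side. The rule was met in 5 of the 33 members (15.2%), beside 1.01% of 21877 protein coding genes. In Keap1 the match lies in the coding sequence. Those of the ferritin chains, ferroportin and the transferrin receptor lie in UTRs and are printed because their place in the mRNA separates the genes that store or export iron from the one that imports it. Capitals mark the 6 letters of the loop.
Fth1, chr19:9982732-9982761, plus strand, 5' UTR: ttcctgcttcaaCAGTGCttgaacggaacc
Ftl1, chr7:45459778-45459807, minus strand, 5' UTR: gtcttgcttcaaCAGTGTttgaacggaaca
Slc40a1, chr1:45925464-45925493, minus strand, 5' UTR: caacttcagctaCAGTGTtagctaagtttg
Tfrc element 1, chr16:32631219-32631248, plus strand, 3' UTR: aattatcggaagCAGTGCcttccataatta
Tfrc element 2, chr16:32631598-32631627, plus strand, 3' UTR: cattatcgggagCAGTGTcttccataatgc
Tfrc element 3, chr16:32631663-32631692, plus strand, 3' UTR: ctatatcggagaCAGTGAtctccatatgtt
Tfrc element 4, chr16:32631710-32631739, plus strand, 3' UTR: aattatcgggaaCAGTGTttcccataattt
The Fth1 element begins at base 87 of a transcript of 929 bases, that of Ftl1 at base 78 of 968 and that of Slc40a1 at base 90 of 3370. The Tfrc elements begin between bases 3315 and 3806 of 4890. Such a match shows the letters and no binding.

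Most calls among the members were higher levels in the ischemia library, and which genes were called differed by cell type. Over the 10 cell types, 295 of 330 pairs of member and type passed the UMI minimum, of which 27 were called higher and 8 lower. In PT-like cells, 5 of the 32 members that passed were at least 2-fold higher and 0 at least 2-fold lower, beside 6.85% and 3.89% of all genes that passed. TAL-like cells had calls in both directions. There, 6 of the 32 members that passed were at least 2-fold higher and 3 at least 2-fold lower, beside 7.84% and 7.63% of all genes that passed. In macrophage-like cells, 5 of the 32 members that passed were at least 2-fold higher and 0 at least 2-fold lower, beside 5.57% and 4.74% of all genes that passed. The shares called higher, 15.6%, 18.8% and 15.6% of the members that passed, were above those of all genes. The members were chosen with earlier results of these data known, so this describes the list and is no independent result. With a limit of 25% mitochondrial UMIs per cell in place of 55%, 3 members were called higher in PT-like and 3 in TAL-like cells. The shares of all genes at that limit are not given.

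In thin limb-like cells, 4 of the 30 members that passed were at least 2-fold higher and 1 at least 2-fold lower, beside 4.4% and 7.11% of all genes that passed. In DCT-CNT-like cells, 4 of the 32 members that passed were at least 2-fold higher and 1 at least 2-fold lower, beside 6.38% and 5.04% of all genes that passed. CD-PC-like cells were near the background, as 1 member of 32 was higher and 2 lower, beside 5.77% and 4.48% of all genes. Outside the tubule, 1 member was called higher in EC-like cells, Hmox1, where 1.91% of all genes were higher and 3.36% lower, and 0 of the 32 members that passed were lower. In pericyte-like cells 1 of 32 members was higher and 1 lower, beside 2.16% and 2.3% of all genes. No member was called in podocyte-like cells, where 22 passed and 0.857% of all genes were higher and 2.52% lower. The same held in T-like cells, where 19 passed, beside 2.72% higher and 2.13% lower. The median ratio of the members that passed was 1.36 in PT-like, 1.18 in TAL-like and 1.52 in macrophage-like cells, beside medians over all genes of 1.08, 1.07 and 1.08. In the other 7 types it lay between 0.980 in podocyte-like and 1.18 in thin limb-like cells, where all genes gave 1.03 and 0.988.

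**Figure D1:**
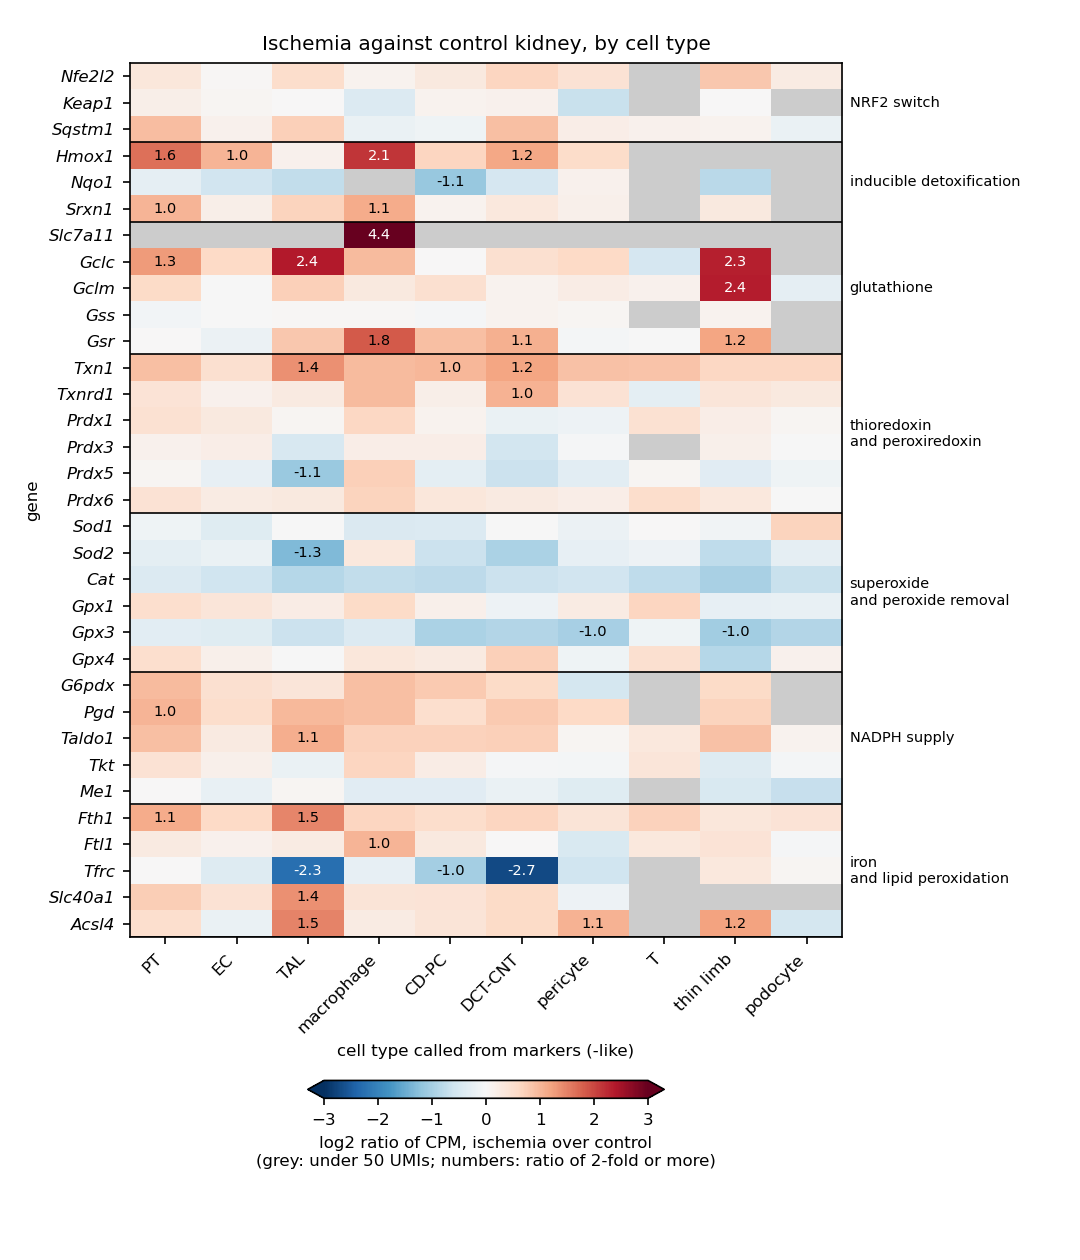
The color map gives the log2 ratio of CPM, ischemia over control, for the 33 members (vertical, in groups by role) in 10 cell types (horizontal), with numbers on the pairs at or past 2-fold and grey for pairs under 50 UMIs. Cat and Gpx3 are blue in all 10 types and Txn1 and Fth1 are red in all 10, while Tfrc is deep blue in DCT-CNT-like and TAL-like cells and near 0 on the log2 scale in PT-like cells.

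Together the members took 4.12% of all UMIs of control PT-like cells and 5.50% of those of ischemia PT-like cells. Ferritin alone, the sum of Fth1 and Ftl1, made up 1.71% and 3.07%. In TAL-like cells ferritin made up 0.650% and 1.57%, and in macrophage-like cells 1.18% and 2.02%. The share of ferritin was higher in the ischemia library in each of these 3 types. The same held in all other types compared, as in T-like cells (0.532% and 0.793%) and pericyte-like cells (0.686% and 0.750%). The direction was therefore not particular to the 3 types.

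The calls differed in how well they held. Of the 35 calls, 15 stayed past 2-fold under every alternative processing that gave a value. They were Hmox1 and Gclc in PT-like cells, Gclc, Fth1, Slc40a1, Tfrc, Sod2 and Prdx5 in TAL-like cells, Tfrc in DCT-CNT-like cells, Gclc, Gclm and Gsr in thin limb-like cells, and Hmox1, Slc7a11 and Gsr in macrophage-like cells. The other 20 went below the limit under at least 1 alternative, each keeping its direction. Without the barcodes shared by the libraries, 31 of the 35 calls were kept.

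The genes of the NRF2 switch were measured in each type at the mRNA level, which does not show how much NRF2 protein was in the nucleus. Nfe2l2 passed in 9 types and its ratio lay between 1.03 in EC-like and 1.76 in thin limb-like cells, with no call. Macrophage-like cells had the highest level of the named types compared, 303 and 323 CPM, and PT-like cells the lowest in the control, 46.5 and 59.0 CPM. Keap1, the adaptor that marks NRF2 for degradation, stood at 16.7 and 18.9 CPM in PT-like cells (1.13-fold). Sqstm1 encodes p62, an autophagy receptor that binds KEAP1. Its level in PT-like cells was 164 and 314 CPM, 1.91-fold (95% interval 1.87 to 1.95), below the limit for a call, and 1.87-fold in DCT-CNT-like cells. No member of the switch was called in any of the 10 types.

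Hmox1, heme oxygenase 1, breaks heme down to biliverdin, carbon monoxide and iron. In PT-like cells the control level was 18.8 CPM (17.8 to 19.9) and the ischemia level 58.8 CPM (57.0 to 60.7), 3.13-fold higher (95% interval 2.94 to 3.33). In macrophage-like cells, which had the highest level of the 10 types in both libraries, it measured 85.3 and 377 CPM, 4.42-fold (3.75 to 5.25). The gene was also called higher in DCT-CNT-like cells, at 6.57 and 14.7 CPM, and in EC-like cells, at 12.2 and 24.7 CPM. These calls were lost under 2 of 10 and 4 of 10 alternatives. Both control levels lie below that of control T-like cells, taken below as background, which held 5 Hmox1 UMIs of 319766. Both ischemia levels lie above that of ischemia T-like cells, which held 4 of 436473. In the control, the PT markers summed to 8378 CPM in T-like, 1565 CPM in DCT-CNT-like and 6042 CPM in EC-like cells. The amount of free RNA may thus differ between these types, which was not tested. TAL-like cells had 11.3 and 12.2 CPM (1.09-fold). A few cells carried many of these UMIs. Of the 116 control UMIs in TAL-like cells, 84 came from 5 cells, and of the 153 control UMIs in macrophage-like cells, 101 did. In the ischemia library the top 5 macrophage-like cells held 509 of 2046 UMIs, a smaller share than in the control. The top 5 PT-like cells held 35 of 1349 control and 143 of 4008 ischemia UMIs. In DCT-CNT-like cells they held 10 of 59 and 42 of 111 UMIs, and in EC-like cells 11 of 61 and 58 of 164. In PT-like, DCT-CNT-like and EC-like cells this share was larger in the ischemia library.

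To compare shares of cells at 1 depth, each cell was thinned to 1000 UMIs. A Hmox1 UMI was then found in 2.06% of control and 5.38% of ischemia PT-like cells, where the unthinned shares were 24.4% and 49.9%. In macrophage-like cells the thinned shares were 4.24% and 14.0%, from unthinned shares of 14.5% and 41.1%. Thinning left out 124 control and 59 ischemia PT-like cells, and 7 and 14 macrophage-like cells. T-like cells, which are not known for Hmox1, served as the background of free RNA. They gave 3 of 99 control cells (3.03%, exact binomial interval 0.629 to 8.60%) and 0 of 115 ischemia cells, which by the limit of 3 counts allows a share of up to 2.61% (exact binomial upper bound 3.16%), at median depths of 3014 and 3405 UMIs before thinning, against 14238.5 and 17718.5 in PT-like cells and 5546.5 and 8570 in macrophage-like cells. The shares in control PT-like and macrophage-like cells lie within the interval of control T-like cells, which rests on 3 positive cells. Neither share is told apart from this background at this depth. Control T-like cells also held 8378 CPM of the PT markers, against 23682 CPM in control PT-like cells. The part of PT RNA in the Hmox1 of T-like cells was not tested. Thinned to 2000 UMIs, the shares were 3.70% and 10.3% in PT-like, 7.17% and 21.3% in macrophage-like and 2.56% and 2.11% in T-like cells. The T-like intervals were 0.312 to 8.96% and 0.256 to 7.40%. The control PT-like and macrophage-like shares again lie within the control T-like interval. At both depths the ischemia shares in PT-like and macrophage-like cells were above the T-like shares of the same library.

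Srxn1, sulfiredoxin, restores peroxiredoxins that have been over-oxidised. It measured 28.3 and 57.1 CPM in PT-like cells, 2.01-fold (1.91 to 2.13), and 11.1 and 24.2 CPM in macrophage-like cells, 2.17-fold (1.35 to 3.66). Both ratios lie close to the limit of 2, the interval in each includes it, and the calls were lost under 4 of 10 and 1 of 10 alternatives. Nqo1, a quinone reductase often used to read NRF2 activity, went the other way in most types. Its level in PT-like cells was 47.2 and 38.9 CPM (0.825-fold). In CD-PC-like cells it was 12.3 and 5.59 CPM and called lower (0.453-fold, 0.327 to 0.624, lost under 1 of 9 alternatives). Its ratio was below 1 in 6 of the 7 types in which it passed. Of these inducible enzymes, Hmox1 and Srxn1 were called higher in PT-like cells and Nqo1 was not.

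**Figure D2:**
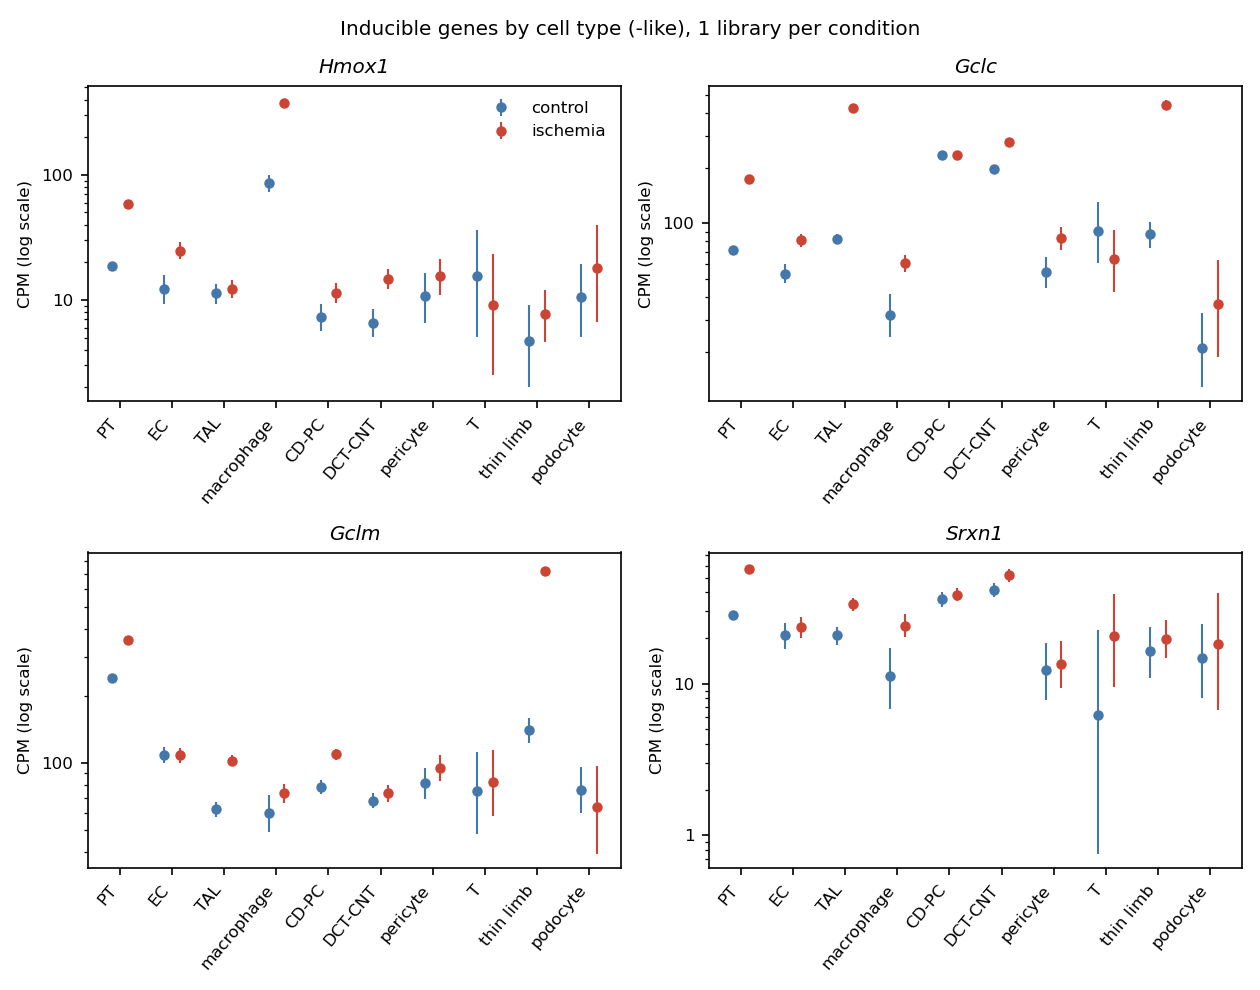
The 4 panels give CPM on a log scale for Hmox1, Gclc, Gclm and Srxn1 in each cell type, control in blue and ischemia in red, with exact Poisson 95% intervals as bars and 1 library per condition. Gclc is at least 2-fold higher in the ischemia library in PT-like, TAL-like and thin limb-like cells, and its ratio is above 1 in 8 of the 9 types that passed. Hmox1 is at least 2-fold higher in PT-like, macrophage-like, DCT-CNT-like and EC-like cells, while Gclm stands apart in thin limb-like cells (140.2 and 722 CPM).

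Gclc and Gclm encode the catalytic and modifier subunits of glutamate cysteine ligase, the rate-limiting enzyme of glutathione synthesis. Gclc measured 71.7 and 174 CPM in PT-like cells, 2.43-fold (2.35 to 2.51), and 82.4 and 427 CPM in TAL-like cells, 5.18-fold (4.82 to 5.57). In thin limb-like cells Gclc measured 87.2 and 441 CPM, 5.05-fold (4.25 to 6.03). There the top 5 cells held 71 of 150 control and 530 of 1089 ischemia UMIs of Gclc. The highest control levels were in CD-PC-like cells, with a ratio of 1.003 (235 and 236 CPM). The modifier Gclm followed the catalytic subunit in thin limb-like cells, at 140.2 and 722 CPM, 5.15-fold (4.50 to 5.92). The top 5 of these cells held 77 of 241 control and 491 of 1785 ischemia UMIs of Gclm. In PT-like cells, which had the highest control level, Gclm measured 241 and 356 CPM (1.48-fold), and in TAL-like cells 62.2 and 103 CPM (1.65-fold). So of the types in which Gclc was called, Gclm was called in 1. Other markers moved with the libraries in the thin limb-like cells, where Havcr1 measured 0.582 and 298 CPM, the injured PT markers summed to 483 and 1292 CPM, the urothelium markers to 268 and 0 CPM and the macrophage markers to 116 and 15.4 CPM. Their own thin limb markers summed to 5988 and 5317 CPM. The part of a change in the mix of these cells in their Gclc, Gclm and other ratios was not tested. The thinned share of thin limb-like cells with a Gclm UMI was 9 of 88 control and 33 of 76 ischemia cells, at unthinned shares of 69.3% and 90.9%.

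Gss, which adds glycine to complete glutathione, was not called in any type and measured 131 and 122 CPM in PT-like cells. Gsr, the reductase that recycles oxidised glutathione with NADPH, measured 68.6 and 244 CPM in macrophage-like cells, 3.56-fold (2.96 to 4.32), the largest ratio of this gene. It was also called higher in thin limb-like cells (77.9 and 176 CPM) and in DCT-CNT-like cells (35.5 and 74.4 CPM, lost under 4 of 10 alternatives). In PT-like cells it stood at 148 and 150.1 CPM. Slc7a11, the cystine importer that feeds glutathione synthesis, passed in 1 of the 10 types. In macrophage-like cells it rested on 5 control and 322 ischemia UMIs, 2.79 and 59.4 CPM, a ratio of 21.3 with an interval of 9.04 to 66.1. The tubule held little of it, with 31 ischemia UMIs in all PT-like cells and 35 in TAL-like cells, 31 of the latter in 5 cells. In the control, pericyte-like cells had the highest level of the 10 types, 6.94 CPM from 13 UMIs. In the ischemia library Slc7a11 was thus read mainly in myeloid cells.

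PMN-like cells held most of the Slc7a11 UMIs, 52.7% in the control and 71.1% of those after ischemia, and macrophage-like cells 21.3% of the latter. The level in PMN-like cells was 133 CPM over 33 control cells and 874 CPM over 210 ischemia cells. After thinning, 27.3% and 54.6% of PMN-like cells had a Slc7a11 UMI, against 1.06% and 5.79% of macrophage-like cells. The unthinned shares were 39.4% and 73.8% of PMN-like and 1.72% and 18.5% of macrophage-like cells. Macrophage-like cells had 12.3 CPM of the 6 neutrophil markers together in the control library, against 236 CPM in the ischemia library. The latter is 0.355% of their level in PMN-like cells, and the part of PMN-like RNA or cells in the Slc7a11 of macrophage-like cells was not tested. Hmox1 in PMN-like cells measured 2.72 and 31.0 CPM, Gsr 368 and 718 CPM and Nfe2l2 218 and 437 CPM.

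The macrophage-like cells held a C1q-high range, with at least 1000 CPM of C1qa, C1qb and C1qc together, and a C1q-low range, and this limit was set after the data were seen. Of the 874 cells, 25 lay within 20% of it. C1q-high cells numbered 218 and 302, and C1q-low cells 72 and 282, 24.8% and 48.3% of the type. The mix of the 2 ranges therefore moved with the libraries. Hmox1 was higher in the ischemia library in both, at 116 and 434 CPM in C1q-high cells (3.74-fold, 3.15 to 4.47) and 9.66 and 314 CPM in C1q-low cells (32.5-fold, 13.9 to 100.3). The control level in C1q-low cells rests on few UMIs. It lies below that of control T-like cells, the background used above, which held 5 Hmox1 UMIs of 319766. Slc7a11 measured 3.13 and 22.3 CPM in C1q-high cells (7.13-fold, 2.65 to 27.0) and 1.93 and 101 CPM in C1q-low cells, where the control held 1 UMI and the ratio of 52.2 has an interval of 9.28 to 2068. Gsr measured 46.2 and 119 CPM in C1q-high cells (2.57-fold) and 124 and 385 CPM in C1q-low cells (3.11-fold). Ftl1 measured 4339 and 8746 CPM in C1q-high (2.02-fold) and 2402 and 6485 CPM in C1q-low cells (2.70-fold). Each of these 4 genes was past 2-fold in both ranges. The neutrophil markers summed to 31.1 CPM in C1q-high and 465 CPM in C1q-low ischemia cells, and their part in these values was not tested.

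**Figure D3:**
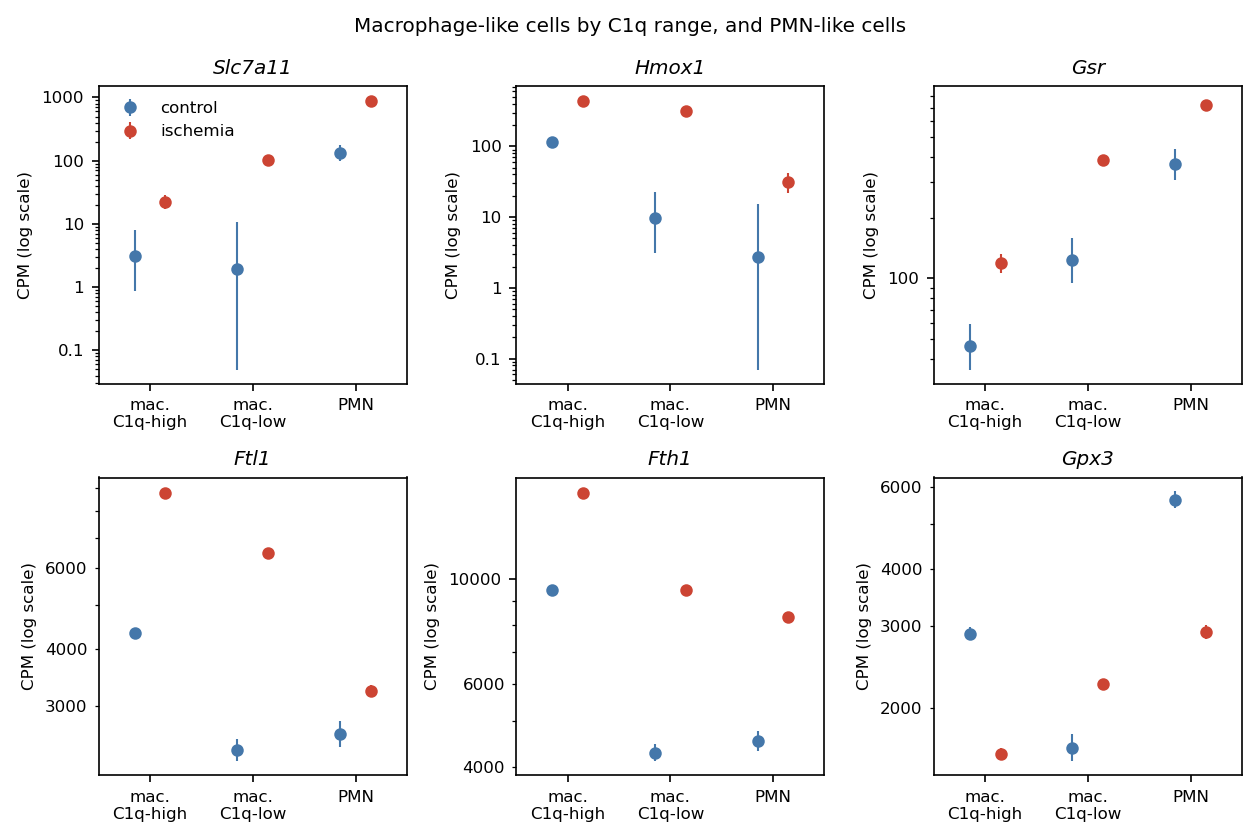
The 6 panels give CPM on a log scale for Slc7a11, Hmox1, Gsr, Ftl1, Fth1 and Gpx3 in C1q-high and C1q-low macrophage-like cells and in PMN-like cells, control in blue and ischemia in red, with exact Poisson 95% intervals and 1 library per condition. Slc7a11 is highest in PMN-like cells (133 and 874 CPM) and Hmox1 is highest in C1q-high cells (116 and 434 CPM), while Gpx3 is lower in the ischemia library in C1q-high cells (2893 and 1588 CPM) and higher in C1q-low cells (1639 and 2249 CPM).

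Thioredoxin, Txn1, reduces disulfides and passes electrons to peroxiredoxins, and its ratio was above 1 in all 10 types, from 1.39 in EC-like to 2.59 in TAL-like cells. It measured 205 and 531 CPM in TAL-like, 163 and 373 CPM in DCT-CNT-like and 299.7 and 602 CPM in CD-PC-like cells, the 3 types in which it was called higher. These calls were lost under 1 of 9, 1 of 10 and 4 of 9 alternatives, in that order. PT-like cells had 719 and 1349 CPM, 1.88-fold, just under the limit. Txnrd1, the reductase that recharges thioredoxin, was called in DCT-CNT-like cells (68.6 and 141 CPM, 2.05-fold, 1.86 to 2.27), a call lost under 4 of 10 alternatives. Peroxiredoxins reduce hydrogen peroxide and peroxynitrite. Prdx1, the abundant cytosolic form, measured 1058 and 1454 CPM in PT-like cells (1.37-fold), and Prdx6, which also acts on lipid peroxides, 115 and 156 CPM (1.36-fold). The mitochondrial Prdx3 stood at 79.7 and 86.9 CPM. Prdx5, present in mitochondria and peroxisomes, was called lower in TAL-like cells, at 1312 and 610.1 CPM (0.465-fold, 0.452 to 0.478), and its ratio was 0.640 in DCT-CNT-like and 1.64 in macrophage-like cells.

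Among the enzymes that remove superoxide and peroxide, catalase was below the control level in each type, while the glutathione peroxidases Gpx1 and Gpx4 were above it in 7 of 10. Cat, the peroxisomal catalase, had a ratio below 1 in all 10 types, from 0.506 in thin limb-like to 0.754 in PT-like cells (424 and 320.2 CPM), with no call. Its level was highest in PT-like cells and next in T-like cells (203 and 119 CPM). In T-like cells the PT markers summed to 8378 and 4044 CPM, and in TAL-like cells to 1833 and 812 CPM. The part of free PT RNA in the Cat of the other types was not tested. Sod2, the mitochondrial superoxide dismutase, was called lower in TAL-like cells, at 315 and 125 CPM (0.396-fold, 0.373 to 0.421), and measured 328 and 169 CPM in DCT-CNT-like cells (0.515-fold). Macrophage-like cells were the exception, with 132 and 163 CPM (1.24-fold). The cytosolic Sod1 measured 274 and 249 CPM in PT-like cells. Gpx1, the common glutathione peroxidase, measured 1827 and 2601 CPM there (1.42-fold), and Gpx4, which removes lipid peroxides and so opposes ferroptosis, 1286 and 1816 CPM (1.41-fold). In thin limb-like cells Gpx4 stood at 1264 and 697 CPM (0.552-fold).

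Gpx3 encodes the secreted glutathione peroxidase of plasma, which the kidney makes mostly in the proximal tubule. Its ratio was below 1 in all 10 types, from 0.483 to 0.910, and it was called lower in pericyte-like cells (3159 and 1578 CPM, lost under 3 of 10 alternatives) and thin limb-like cells (1245 and 602 CPM). The call in thin limb-like cells was lost with the mean of cells, where the ratio was 0.825 in place of 0.483. PT-like cells had 14504 and 11629 CPM, 0.802-fold. In the other types Gpx3 was read beside the PT markers, which free PT RNA carries into any droplet. In EC-like cells it was 23.2% and 22.6% of the PT-like level, where the 15 PT markers together were at 25.5% and 18.2%. In thin limb-like cells the same values were 8.59% and 5.18% for Gpx3 and 6.83% and 3.48% for the markers. Pericyte-like cells gave 21.8% and 13.6% for Gpx3, and 16.7% and 14.6% for the markers. The part of free PT RNA in these calls was not tested.

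NADPH, which glutathione and thioredoxin reductases spend, comes largely from the pentose phosphate pathway. G6pdx and Pgd encode its NADPH-forming steps. Pgd was called higher in PT-like cells, at 49.1 and 99.9 CPM (2.03-fold, 1.95 to 2.12), a call lost under 3 of 10 alternatives, and G6pdx stood at 7.98 and 15.3 CPM there (1.92-fold). Taldo1, transaldolase, was called higher in TAL-like cells (143 and 303 CPM, 2.12-fold, lost under 3 of 9 alternatives) and measured 175 and 325 CPM in PT-like cells (1.86-fold). The ratio of Taldo1 was above 1 in all 10 types, and that of Pgd in all 8 in which it passed. Tkt, transketolase, was not called, with 169 and 229 CPM in PT-like cells. Me1, the cytosolic malic enzyme, makes NADPH outside the pathway and stood at 199 and 199.8 CPM in PT-like cells (1.003-fold).

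Fth1, the ferritin heavy chain that oxidises iron for storage, was called higher in PT-like and TAL-like cells. It measured 10367 and 22527 CPM in PT-like cells (2.17-fold) and 5019 and 13909.8 CPM in TAL-like cells (2.77-fold), and its ratio was above 1 in all 10 types. PT-like cells had the highest Fth1 level in both libraries. The PT markers summed to 23682 and 16244 CPM in PT-like cells and to 8378 and 4044 CPM in T-like cells. The part of free PT RNA in the Fth1 of the other types was not tested. Ftl1, the light chain, was called in macrophage-like cells, at 3781 and 7679 CPM (2.03-fold), while PT-like cells had 6741 and 8182 CPM (1.21-fold). The Ftl1 call was lost under 4 of 10 alternatives and the Fth1 call in PT-like cells under 2 of 10, so both lie near the limit. The gene list also holds Ftl1-ps1, a near copy, so some reads of Ftl1 may be missing from its count. Both mRNAs carry a 5' UTR element printed above, which acts on translation, and protein was not measured.

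Tfrc, the transferrin receptor that imports iron, had the lowest ratios of any member that passed. DCT-CNT-like cells had the highest control level, 238 CPM, against 36.2 CPM in the ischemia library (0.152-fold, 0.134 to 0.173). TAL-like cells followed with 130.1 and 27.2 CPM (0.209-fold, 0.185 to 0.235), and CD-PC-like cells with 69.1 and 34.2 CPM (0.496-fold, lost under 2 of 9 alternatives). PT-like cells stood at 75.1 and 75.2 CPM (1.002-fold). The markers of the same cell types were lower too. The 7 TAL markers summed to 22811 and 9381 CPM in TAL-like cells, and the 8 DCT-CNT markers to 16348 and 9322 CPM in DCT-CNT-like and 1909.6 and 444 CPM in TAL-like cells, with 0 markers at 0. Their part in the Tfrc values was not tested.

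Slc40a1, ferroportin, is the exporter of iron from cells. It was called higher in TAL-like cells, at 35.6 and 91.9 CPM (2.58-fold, 2.29 to 2.91), and measured 45.1 and 75.0 CPM in PT-like cells (1.66-fold). In TAL-like cells Tfrc was thus called lower and Fth1 and Slc40a1 higher. Acsl4 puts polyunsaturated fatty acids into membrane lipids, the substrate of ferroptosis. It was called higher in TAL-like cells (66.8 and 188 CPM, 2.82-fold), thin limb-like cells (25.01 and 57.8 CPM, 2.31-fold) and pericyte-like cells (33.6 and 69.8 CPM, 2.07-fold). These calls were lost under 1 of 9, 1 of 10 and 4 of 10 alternatives, in that order. Acsl4 stood at 30.3 and 42.9 CPM in PT-like cells. Podocyte-like cells, with the highest control level, had 136 and 93.8 CPM.

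**Figure D4:**
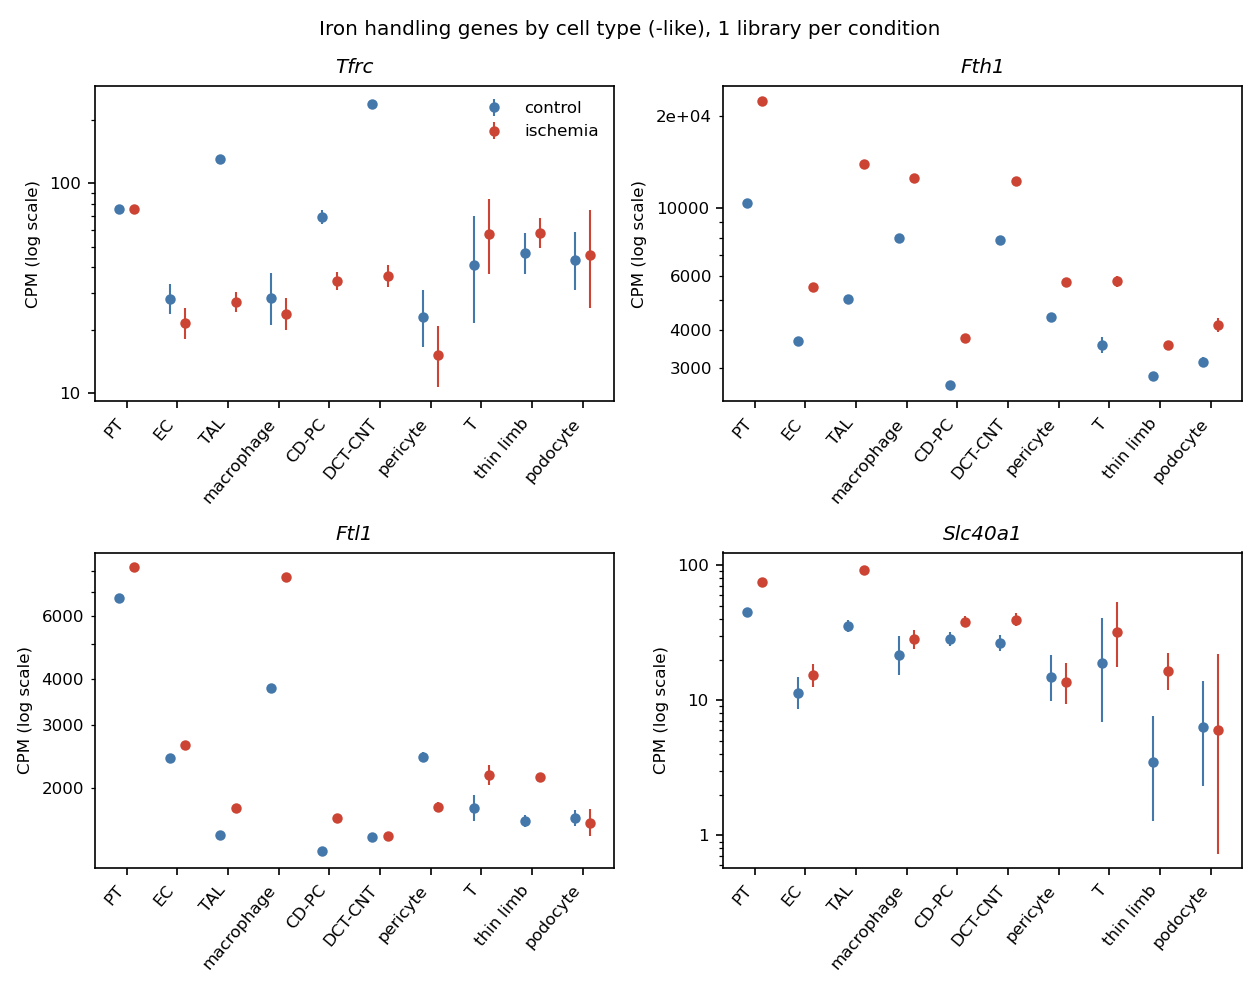
The 4 panels give CPM on a log scale for Tfrc, Fth1, Ftl1 and Slc40a1 in each cell type, control in blue and ischemia in red, with exact Poisson 95% intervals as bars and 1 library per condition. Tfrc is lower in the ischemia library in DCT-CNT-like and TAL-like cells and level in PT-like cells, while Fth1 is higher in all 10 types and Ftl1 stands apart in macrophage-like cells.

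PT-like cells formed 3 clusters, numbered 1 to 3, of which cluster 2 had the highest level of Slc5a2, the glucose transporter of the early proximal tubule, and cluster 3 the highest level of Slc7a13, a transporter of its last segment. Hmox1 had ratios of 3.06, 3.24 and 3.32 in clusters 1, 2 and 3, so it was past 2-fold in each. Fth1 had ratios of 1.92, 2.14 and 2.44 and Gclc of 1.87, 2.34 and 2.66. Gclc was highest in ischemia cells of cluster 3, at 297 CPM against 112 CPM in the control. Pgd gave 1.73, 2.21 and 2.15, Srxn1 1.73, 2.23 and 2.04 and Gclm 1.34, 1.496 and 1.63. Nqo1 gave 0.815, 0.859 and 0.879, Cat 0.786, 0.816 and 0.729 and Gpx3 0.861, 0.782 and 0.767, all below 1. The summed injured PT markers in PT-like cells were 67.6 and 675 CPM, and the PT markers 23682 and 16244 CPM.

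Within the ischemia library, PT-like cells with at least 2000 UMIs were split by Havcr1, so that cells of the same kidney were compared. This cuts a range of Havcr1 and defines no cell type. The 596 cells at or above 500 CPM of Havcr1 had a median of 30706.5 UMIs, and the 797 cells with 0 Havcr1 UMIs a median of 10006. A further 1250 cells lay between, and 217 were within 20% of the limit. Of the 32 members that passed, 6 were at least 2-fold higher and 1 lower in Havcr1-high cells, beside 4.93% and 5.46% of all genes. Gclc measured 95.5 CPM in cells with 0 Havcr1 UMIs and 304 CPM in Havcr1-high cells (3.18-fold, 2.99 to 3.38), and Hmox1 32.2 and 97.6 CPM (3.03-fold, 2.73 to 3.37). Pgd (2.41-fold), Srxn1 (2.10-fold), Nqo1 (2.06-fold) and Gclm (2.01-fold) were the others that were higher. Gpx3 was lower, at 15262 and 7588 CPM (0.497-fold). Nqo1, below 1 between the libraries, was thus higher in the Havcr1-high cells.

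The Havcr1-high cells were deeper, and 326 of them were in cluster 3 against 110 of the cells at 0, so the split was repeated within each cluster. In clusters 1, 2 and 3 the ratio was 2.19, 1.91 and 2.24 for Gclc, 2.97, 2.75 and 3.55 for Hmox1 and 2.24, 1.997 and 2.31 for Pgd. Srxn1 gave 1.64, 2.26 and 2.42. For Nqo1 the ratio was 1.59, 1.08 and 1.41, for Gclm 1.45, 1.31 and 1.52 and for Gpx3 0.644, 0.618 and 0.686. Gclc, Pgd, Nqo1, Gclm and Gpx3 were nearer to 1 within each cluster than over all 3, and Nqo1, Gclm and Gpx3 did not reach 2-fold in any. Restricting both ranges to cells with at least 10000 UMIs gave 3.41 for Gclc and 3.30 for Hmox1. These repeats were added after the data were seen.

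**Figure D5:**
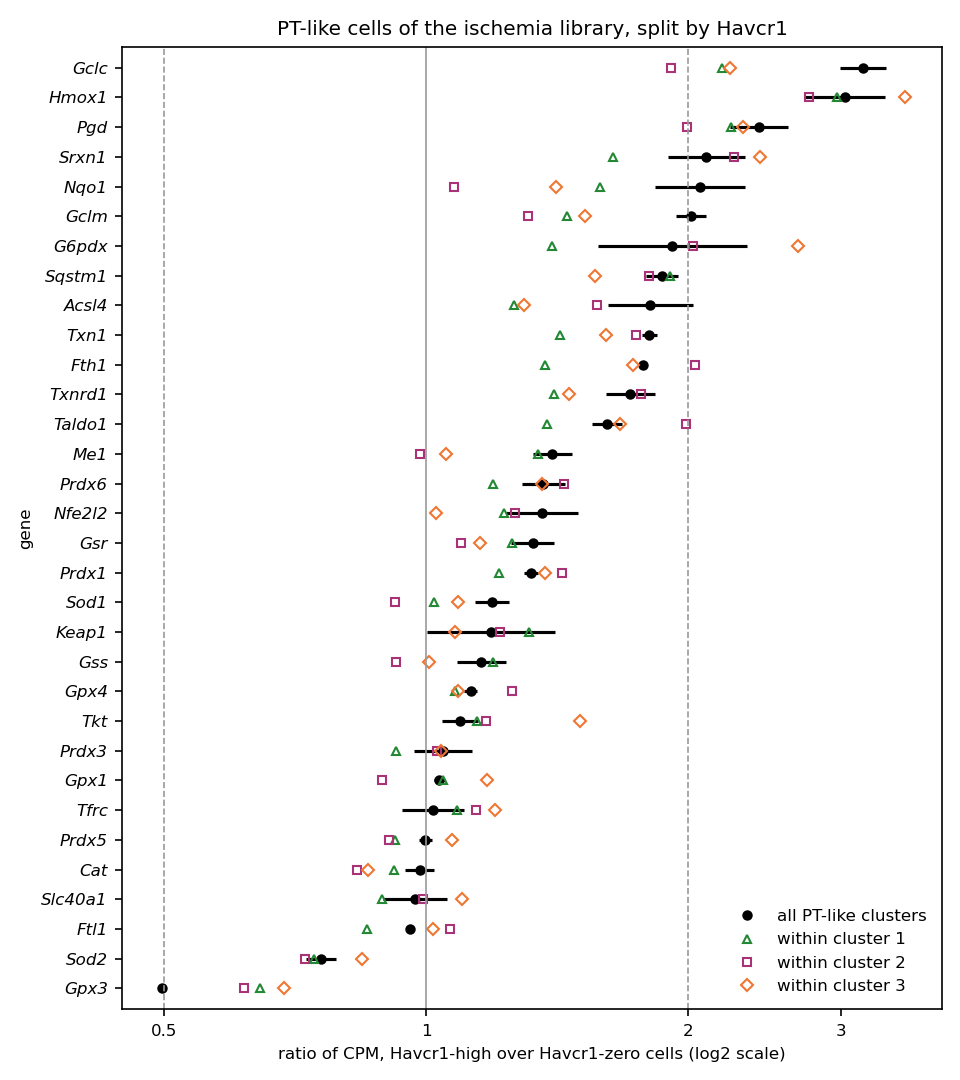
Each row is a member that passed, ordered by its ratio of CPM in Havcr1-high over Havcr1-zero PT-like cells of the ischemia library, on a log2 axis, with black points and 95% counting intervals for all clusters and open symbols for the split within each cluster. Gclc, Hmox1, Pgd, Srxn1, Nqo1 and Gclm stand to the right of 1 in every cluster, and Gpx3 to the left. Gclc, Pgd, Nqo1, Gclm and Gpx3 lie nearer to 1 within each cluster than over all clusters.

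Of 77 other genes of the same pathways that were listed alongside the members, several had larger ratios in PT-like, TAL-like and DCT-CNT-like cells than any member there. In PT-like cells 7 of 71 (9.86%) were at least 2-fold higher and 1 (1.41%) lower, beside 6.85% and 3.89% of all genes. Their median ratio was 1.04, below the 1.08 of all genes. The furthest were Akr1b8, an aldo-keto reductase (0.977 and 10.00 CPM), Cp, ceruloplasmin, which oxidises exported iron (6.46 and 59.4 CPM), and Lcn2, the siderophore-binding protein NGAL (6.74 and 43.3 CPM). Dpep1, a dipeptidase that breaks down products of glutathione, was the 1 lower, at 96.6 and 41.9 CPM. In TAL-like cells 9 of 68 (13.2%) were at least 2-fold higher and 6 (8.82%) lower, beside 7.84% and 7.63% of all genes. Their median ratio was 0.957, below the 1.07 of all genes. Lcn2 measured 421 and 5291 CPM and Akr1b8 12.3 and 134 CPM there, while Idh2, the mitochondrial isocitrate dehydrogenase that forms NADPH, measured 468 and 96.7 CPM (0.207-fold). In DCT-CNT-like cells 7 of 65 were at least 2-fold higher and 3 lower, beside 6.38% and 5.04% of all genes. Lcn2 stood there at 60.4 and 2877 CPM, Cp at 1.11 and 37.3 CPM and Akr1b8 at 0.557 and 17.5 CPM.

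In thin limb-like cells 8 of 59 were at least 2-fold higher and 6 lower, beside 4.4% and 7.11% of all genes. Among them were Lcn2 (261 and 963 CPM) and, lower, the extracellular superoxide dismutase Sod3 (55.3 and 10.1 CPM). In CD-PC-like cells 6 of 67 were at least 2-fold higher, led by Akr1b8 (5.14 and 39.4 CPM), and 4 lower, beside 5.77% and 4.48% of all genes. All genes in macrophage-like cells gave 5.57% higher and 4.74% lower, at a median of 1.08. Of the other pathway genes there, 10 of 63 were at least 2-fold higher and 2 lower, at a median of 1.18. These were led by Lcn2 (28.98 and 172 CPM), the zinc and iron importer Slc39a14 (8.36 and 40.6 CPM) and the glutaredoxin Glrx (24.5 and 97.2 CPM), and Txnip, which binds and inhibits thioredoxin, was among the lower ones (165 and 82.4 CPM). In EC-like cells 3 of 68 were at least 2-fold higher and 2 lower, beside 1.91% and 3.36% of all genes. In pericyte-like cells 3 of 57 were at least 2-fold higher and 1 lower, beside 2.16% and 2.3%. Podocyte-like cells had 1 higher and 2 lower of 33, beside 0.857% and 2.52% of all genes. T-like cells had 2 and 0 of 20, beside 2.72% and 2.13%. Lcn2 was at least 2-fold higher in all 10 types, and at its levels in TAL-like and CD-PC-like cells (421 and 5291 and 834 and 5354 CPM) its free RNA could enter other droplets, which was not tested.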

How the data were processed

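scRNAseq was performed by the authors on 1 control and 1 ischemia kidney. The authors deposited raw UMI counts per gene and barcode, made with Cell Ranger 7.0.0 against mm10 per the submitters' processing notes and not normalized. The barcodes held 142686238 control and 142959737 ischemia UMIs.

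Barcodes with 200 or more genes, between 500 and 150000 UMIs and no more than 55% mitochondrial UMIs entered the analysis. They were clustered in Seurat 5.3.0 (R 4.3.3) with 2000 variable genes, from which all listed genes were left out, integration of the libraries by anchors, 30 principal components, resolution 0.3 and seed 42. Clusters were named by the marker list that was highest relative to the median cluster (mean log2 of CPM, pseudocount 10). A name needed 3 markers with 10 UMIs or more and had to lead among the top 10 genes by fold, and injured PT counted as PT. Scrublet (scanpy 1.11.5) called 0 doublets, which was taken as a failed call, so an alternative dropped the top 8% of doublet scores. Further versions were matplotlib 3.10.9, numpy 2.4.6, pandas 2.3.3, Python 3.11.15 and scipy 1.17.1.

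Intervals are exact Poisson for sums and exact conditional binomial for ratios, at 95%, and cover counting error only. The computation was tested on simulated counts drawn independently from Poisson distributions. That simulation leaves out UMIs gathered in few cells, a spread the intervals do not cover. All members were named. Of the other pathway genes, those with the largest ratios were named, at most 3 each way per type. The members and lists were chosen with earlier results of these data known. Results were recomputed with at most 25% mitochondrial UMIs, at least 1000 UMIs, doublets left out, nuclear UMIs as denominator, the median ratio scaled to 1, the mean of cells, resolution 0.6, no integration, listed genes kept among the variable genes, and other limits of fold and UMIs. Leaving out shared barcodes, the Havcr1 repeats and the C1q ranges were added after seeing the data. Promoters came from RefSeq (GRCm38.p6) and transcripts from GENCODE M21.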

Additional observations from a re-analysis of the deposited data

Results flagged for a closer look

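The barcodes left out by the filters entered no comparison. Over the limit of 55% mitochondrial UMIs were 2524 of 2524 in the control and 2137 of 2141 in the ischemia library. Among all barcodes left out, 5 members were at least 2-fold higher in the ischemia library per nuclear UMI, which is what flagged them. The part of the ischemia barcodes that failed another filter was not tested. Of the 32 members with at least 50 UMIs, 4 were at least 2-fold higher and 0 lower, beside 10.9% and 3.07% of all genes. The share of members called higher was thus near that of all genes. Hmox1 had a ratio of 3.316 (2.51 to 4.42), from 13.8 to 45.7 CPM of nuclear UMIs. Slc7a11 had a ratio of 18.04 (4.58 to 156), which rests on 2 control and 30 ischemia UMIs, under the minimum of 50, so it would not be called. Txn1 had a ratio of 2.177, Taldo1 of 2.010 and Fth1 of 2.001. The intervals of Taldo1 (1.84 to 2.20) and Fth1 (1.97 to 2.03) include the limit of 2. These barcodes were assigned to no cell type, so a change in their mix of cells cannot be told apart from a change within cells.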

How the results depend on the processing

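With 1 library per condition, no replicate could be left out. No paired analysis was possible because there is 1 library per condition, so no second pair exists. All 35 called pairs of member and type kept their direction under every alternative that gave a value, and the calls kept were 22 with a 25% mitochondrial limit, 22 with the mean of cells, 29 each with nuclear UMIs as denominator and with the median ratio scaled to 1, 31 each at resolution 0.6 and without shared barcodes, 34 with doublets left out, 20 of 23 without integration, and 35 in the other 2. In PT-like cells the members called higher numbered 3 with a 25% limit, with nuclear UMIs and with scaling, 2 with the mean of cells and 10 at 1.5-fold. In TAL-like cells they numbered 3 with a 25% limit and 11 at 1.5-fold, and those lower 6 at 1.5-fold. TAL-like cells gave no value without integration. In EC-like cells the higher call was lost (0) with a 25% limit, nuclear UMIs, no integration and without shared barcodes, and at 1.5-fold 3 were higher and 1 lower. In macrophage-like cells 8 were higher with doublets left out, and at 1.5-fold 16 were higher and 1 lower. The Havcr1 split called 3 higher within cluster 1, and 0 lower within clusters 1, 2 and 3. The shares of all genes at 1.5-fold and under these other settings are not given. These counts therefore show how the calls moved, and not how the members compare with all genes. Scaling to the median shifted log2 ratios by 0.11 in PT-like, 0.11 in macrophage-like and 0.12 in T-like cells. Depth limits the smaller types, where fewer members passed. The causes of these changes were not tested.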
